A study of Oryza sativa Japonica Group with 17 samples.

Results

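The peaks described here are regions of demethylated rice DNA that iMab enriched at pH 5.5 over both of its controls. iMab is an antibody fragment that recognises the i-motif (iM), and iM-IP-seq is the sequencing of the DNA it immunoprecipitates (IP). The peak caller MACS2 gave 121946 peaks of this DNA over the input, which is the same DNA without immunoprecipitation, and 80882 peaks over a mock IP with IgG. They are called input-called and IgG-called peaks here. Input-called peaks that shared at least 1 bp with any IgG-called peak were taken as common peaks, which left 75913 of them, or 62.3% of the input-called peaks. The 10 peak lists of the whole series held 841685 peaks.

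The series assayed unaltered, hypermethylated and demethylated genomic DNA of Nipponbare rice (Oryza sativa, Japonica) in 17 libraries. For the demethylated DNA, 100 seedlings at an age of 5 days were given 80 µM zebularine in DMSO for 5 further days. The purified DNA was sheared, denatured and slowly refolded in Tris-AcOH buffer at pH 5.5 before iMab or IgG was added, so the peaks describe naked DNA outside the cell. This condition had 2 iMab libraries, 1 IgG library and 1 input library. The input was also the control of the demethylated DNA at pH 7.0, and the hypermethylated DNA used for comparison was purified Nipponbare DNA methylated in vitro with M.CviP I and refolded at pH 5.5. Whole seedlings were treated, and how far each tissue or locus lost methylation was not analysed here.

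An iM forms when a C-rich strand folds back on itself and its cytosines pair with each other through a shared proton, which is why acidic buffer favours the fold. Zebularine is a cytidine analogue that traps DNA methyltransferases, so that methylation is diluted as cells divide. An input control records the uneven recovery of DNA and sequences that the assembly holds in too few copies, whereas an IgG control also records DNA that sticks to antibody or beads.

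The 2 iMab libraries had been merged before peaks were called, so no value below has a replicate error, and intervals of shares are 95% Wilson intervals, which cover counting error only. The number of IP fragments at each summit and the local control level were solved from the fold and the p-value of each peak. The merged IP had a mean coverage of 7.99 fragments. The input held about 1.25 times as many fragments as the IP and the IgG library 0.598 times as many. Both ratios were estimated from steps between the solved control levels, which 42.9% of input and 61.8% of IgG levels above the background fitted. The caller had scaled the IP down to 0.598 of its fragments, a coverage of 4.78, to match the smaller IgG library. Positions are those of the MSU v7.0 assembly, counted from 1. The length of a chromosome was the largest peak end in any list of the series, which gave 373 Mb over 12 chromosomes. Sequence and gene annotation of that assembly were not analysed here, so peaks are named by position.

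The IgG-called list lay almost wholly inside the input-called list. Of the IgG-called peaks, 99.5% (99.4 to 99.5) overlapped an input-called peak, and 407 did not (IgG-only peaks). In the other direction, 46033 input-called peaks (37.7%) met no IgG-called peak (input-only peaks). Of the common peaks, 71636 held a single IgG-called peak and 4277 held several, at most 6. The summit was at the same base in both lists at 46280 common peaks (61.0%) and within 50 bp at 97.1%. Wherever the summits coincided and both could be solved, the number of IP fragments was the same (46244 peaks), since both lists were made from the same IP.

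Common peaks were taller and wider than input-only peaks. The fold of a peak is the ratio of the IP pileup to the local control level, with 1 added to each. Its median over input was 5.29 for common and 2.89 for input-only peaks, with a median of 53 and 28 IP fragments at the summit. The −log10 q-value, the caller's score for enrichment after adjustment, had a median of 21.2 and 5.69. With input-called peaks cut into 10 classes of equal number by fold, 12.9% of the lowest and 99.8% of the highest class were common, and by IP fragments 2.76% and 99.2%. Both lists used the same IP, and a common peak also had to pass the IgG call. Taller peaks are therefore favoured by the definition of a common peak. By the local level of the input control, the share stayed between 59.1% and 65.2% in 9 of 10 classes and was 71.3% in the class with the highest level. The IP fragments at the summits of input-only peaks were also scaled to the IgG depth. At 0.598 of their fragments and the same input level, 40412 (87.8%) reached the smallest −log10 p-value found among IgG-called peaks (2.50), and 5621 did not. Of the common peaks, 317 did not reach it. Only summits were scaled, so peaks that would have become narrower than the caller's minimum were not counted as lost, and the part of the IgG depth in the number of input-only peaks was not tested.

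Common peaks covered all 12 chromosomes at a similar density. There were 203 common peaks per Mb over the genome, and they covered 31.6 Mb (8.47%). Chromosome 3 had the highest density (213 per Mb) and chromosome 11 the lowest (187 per Mb), a ratio of 1.14, around a mean of 203 ± 7.24 per Mb (SD, n = 12 chromosomes). Chromosome 4, at 193 per Mb, was the other chromosome under 199 per Mb, and the remaining 9 besides chromosome 3 lay between 199.6 and 209.04 per Mb.

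The order of the chromosomes differed between the input-called and the IgG-called list. These lists differ in the control, in the scale of the IP and in size, and the part of each was not tested. Over input alone, chromosome 5 had the highest density (339 per Mb), whereas over IgG alone it was chromosome 3 (227 per Mb). Chromosome 11 was lowest in both lists, with 312 and 198 per Mb. Input-only peaks were densest on chromosome 5 (132 per Mb) and sparsest on chromosome 2 (118 per Mb). The share of input-called peaks that were common was 64.2% (63.3 to 65.1) on chromosome 3, 60.5% (59.6 to 61.4) on chromosome 4 and 59.8% (58.8 to 60.9) on chromosome 11. These intervals cover counting error only and take peaks as independent, so they do not serve to separate chromosomes, and no test between chromosomes was made.

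**Figure D1:**
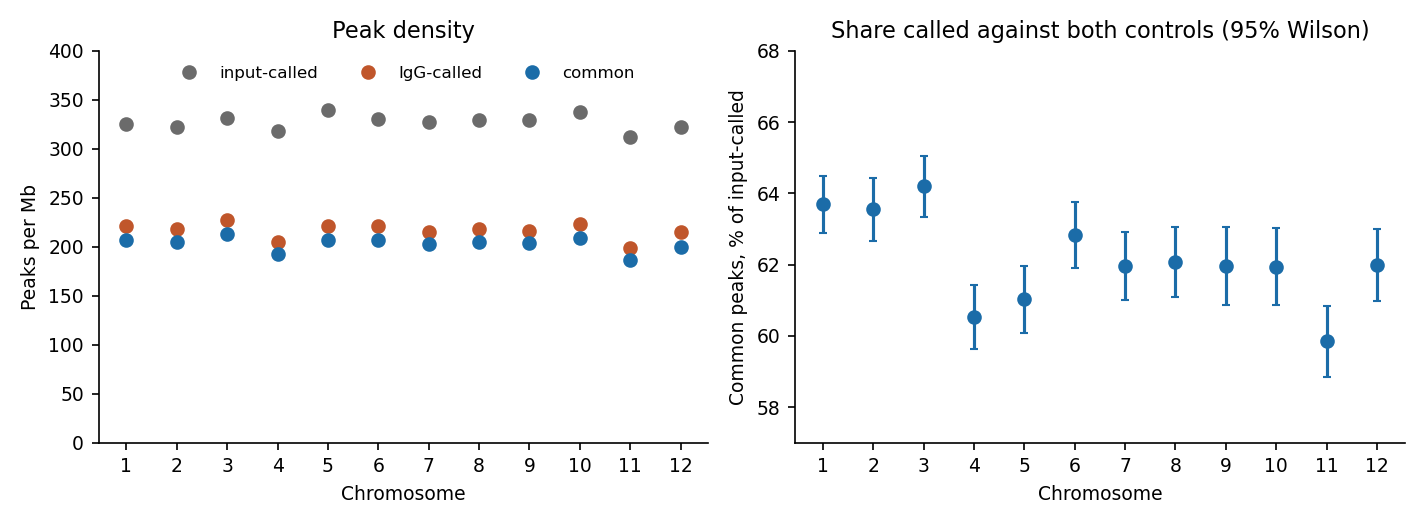
Left, peaks per Mb (y axis) of the 12 chromosomes (x axis) for input-called, IgG-called and common peaks; right, the share of input-called peaks that were common, in percent, with 95% Wilson intervals. Common peaks ranged from 187 to 213 per Mb, and the share was lowest on chromosomes 11 (59.8%) and 4 (60.5%).

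In bins of 1 Mb the common peaks were spread more evenly than the input-only peaks. The 368 full bins held 107 to 260 common peaks, with a median of 204, a mean of 203 and an SD of 21.1. The variance of the counts was 2.19 times their mean, where counts of independent, evenly spread peaks would give 1. This ratio was 2.86 for input-only peaks (82 to 186 per bin) and 2.89 for all input-called peaks (222 to 419 per bin). The SD was 0.104 of the mean for common, 0.152 for input-only and 0.0941 for all input-called peaks, which were the most even by this measure. For common peaks the ratio of variance to mean grew with the window. It was 0.898 in windows of 1 kb, 0.992 in 10 kb, 1.27 in 100 kb, 1.82 in 500 kb and 2.69 in 2 Mb. Peaks closer than the caller's joining distance are written as 1 peak, which limits the count in a window of 1 kb. At 100 kb, 3 of 3727 windows held no common peak and the fullest held 43.

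Chromosomes differed in this evenness. The ratio was 0.941 on chromosome 3, where bins held 180 to 242 common peaks, and between 1.17 and 2.41 on 9 other chromosomes. It was 3.18 on chromosome 4 (123 to 228 per bin) and 4.73 on chromosome 11 (107 to 235 per bin). Both of these chromosomes were thus low in density and uneven. Without chromosome 11 the ratio over all bins was 1.89.

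Neighbouring bins resembled each other little in common peaks and more in input-only peaks. Across 356 pairs of adjacent bins, Pearson's r was 0.189 for common peaks, 0.413 for input-only peaks and 0.382 for the common share. At a distance of 5 Mb (308 pairs) the values were 0.0933, 0.199 and 0.210. Common and input-only peaks of the same bin were weakly related (Spearman's rho 0.168, 368 bins). All bins come from the same merged libraries, so these values describe the lists and were not tested.

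**Figure D2:**
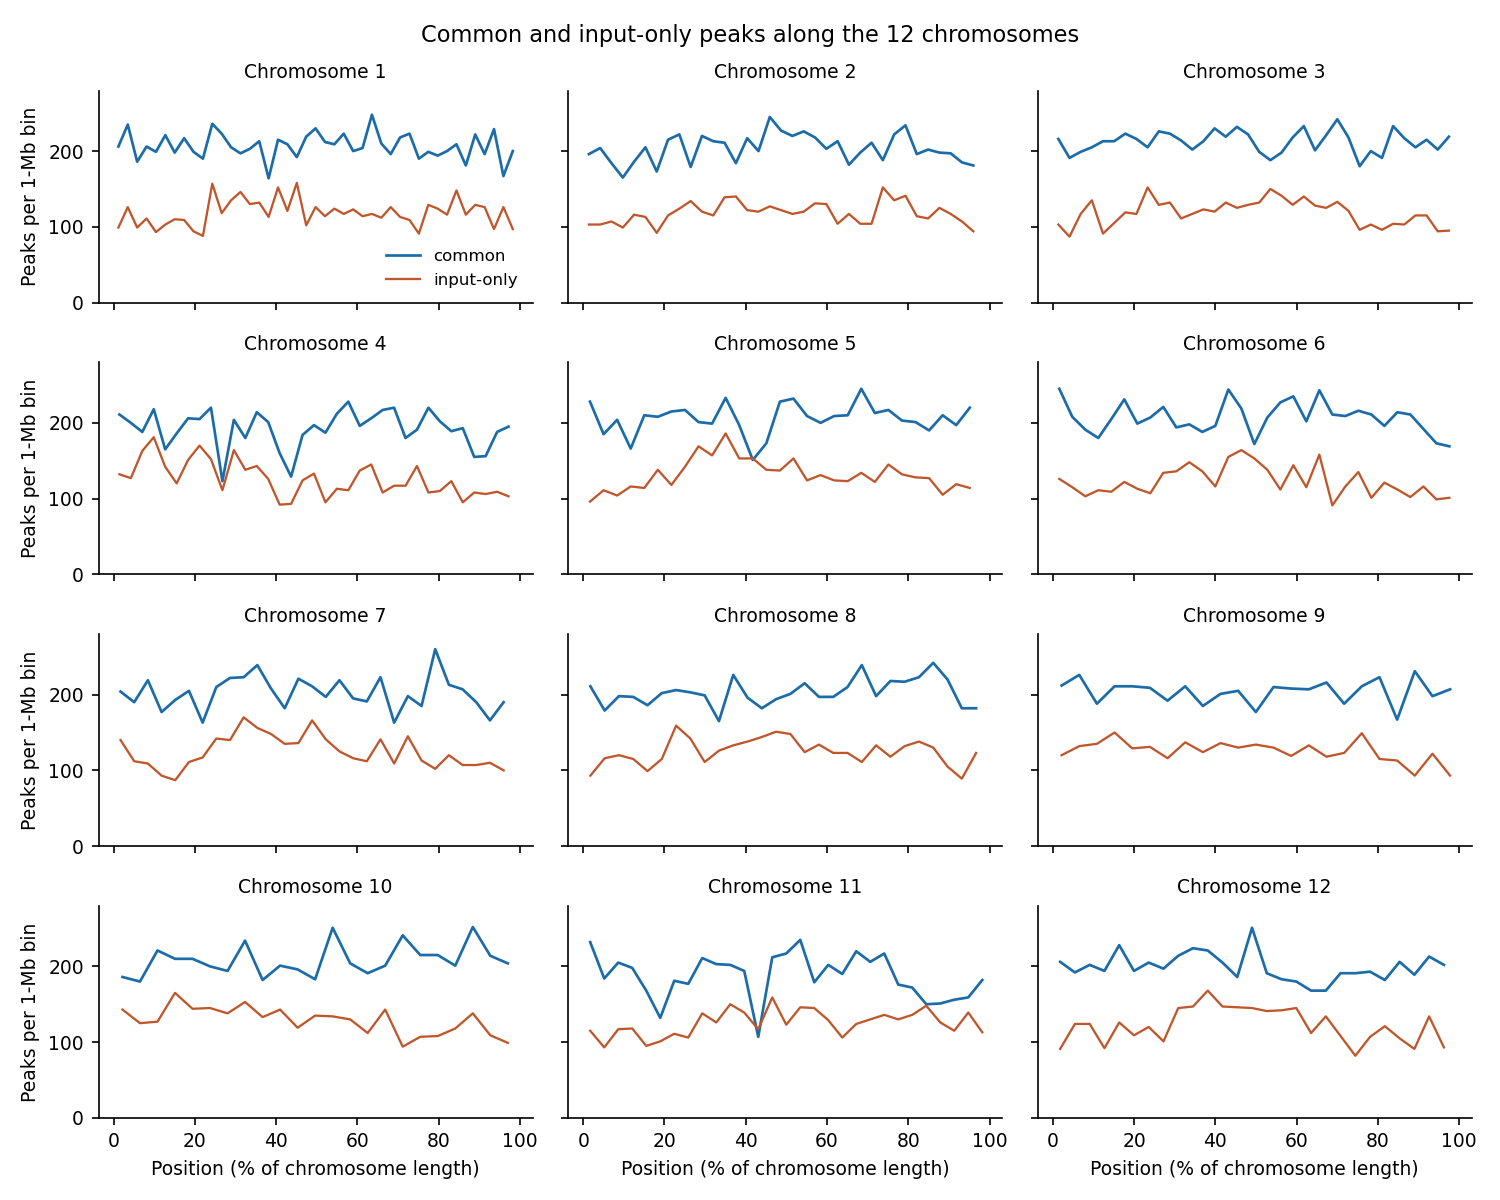
Common and input-only peaks per full 1-Mb bin (y axis) along each of the 12 chromosomes (x axis, bin centre in percent of chromosome length). Common peaks stayed near their median of 204 per bin, with dips to 107 on chromosome 11 and to 123 on chromosome 4, while input-only peaks changed over broader stretches between 82 and 186.

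The 5 fullest bins lay on 4 chromosomes. Chromosome 7 at 23 to 24 Mb held 260 common peaks of 362 input-called peaks (71.8%). It was followed by chromosome 10 at 20 to 21 Mb (252), chromosome 10 at 12 to 13 Mb (251), chromosome 12 at 13 to 14 Mb (251) and chromosome 1 at 27 to 28 Mb (248). Their median widths lay between 309 and 358 bp and their median folds between 4.89 and 5.34, near those of all common peaks, so these bins differed from the others in number rather than in the size of their peaks.

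The 5 emptiest bins lay on chromosomes 4 and 11. Chromosome 11 at 12 to 13 Mb held 107 common peaks of 224 input-called peaks. Its share of 47.8% was the lowest of all bins and its median width of 462 bp the highest. The others were chromosome 4 at 9 to 10 Mb (123) and at 15 to 16 Mb (129), and chromosome 11 at 5 to 6 Mb (132) and at 24 to 25 Mb (150). In the first 18 Mb of chromosome 4, 57.9% (56.7 to 59.2) of input-called peaks were common, compared with 63.3% (62.0 to 64.6) in the rest of it, and input-only peaks were at 137 and 114 per Mb. Chromosome 10 had a similar step, with 58.9% (57.4 to 60.4) in the first 12 Mb and 65.2% (63.7 to 66.7) in the rest. On chromosome 11, the stretch from 24 to 28 Mb held 154.0 common peaks per Mb, compared with 192 in the rest. These 3 stretches were chosen after their values had been seen. Rice chromosomes 4 and 10 are known for short arms rich in heterochromatin, and the position of those arms was not examined here.

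Neighbouring common peaks were separated by a median gap of 2852 bp, measured from the end of a peak to the start of the next. The quartiles were 1005 and 6210 bp, the mean was 4499 bp, and 67.8% of the gaps were 5 kb or shorter. The median was 0.634 of the mean, compared with 0.693 for an exponential distribution, which independent points would give. The lists held no gap under 122 bp, because the caller joins closer pieces. Over all input-called peaks the median gap was 1575 bp. Among chromosomes the median gap of common peaks lay between 2690.5 bp on chromosome 10 and 3057 bp on chromosome 11.

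A small number of gaps were far longer than the rest. Of the 75901 gaps, 1222 were over 20 kb, 35 over 50 kb and 9 over 100 kb. The longest, chr11:12164786-12553708, spanned 389 kb of the emptiest bin. It held 6 input-called and no IgG-called peaks, and 24 common peaks of hypermethylated DNA at pH 5.5 and 9 of demethylated DNA at pH 7.0 lay inside it. Over the genome these other conditions had 222 and 196 common peaks per Mb, so this gap was sparse in them too. The next were chr7:12119344-12284189 (165 kb), chr2:13607509-13762856 (155 kb), chr9:2746567-2886758 (140 kb) and chr1:16741982-16872815 (131 kb), which held 3 to 23 input-called peaks and no IgG-called peak. Hypermethylated DNA at pH 5.5 had 44 to 78 common peaks inside these 4 gaps and demethylated DNA at pH 7.0 had 9 to 28. Other long gaps were empty or nearly so in all 3 conditions: chr4:15745716-15858291 (113 kb) held 1 and 4 common peaks of these other conditions, chr8:11152897-11259369 (106 kb) held 1 and 0, and chr7:1307730-1404139 (96.4 kb) held 0 in both. These 3 were named after their values had been seen. The longest gap on chromosome 3 was 45281 bp.

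Most common peaks stood alone. Joined into chains with gaps of at most 1 kb, 42648 common peaks (56.2%) had no neighbour, 10921 chains held 2 peaks and 3438 chains held 3 or more, here called clusters. Clusters held 11423 common peaks, or 15.0% (14.8 to 15.3). There were 2601 clusters of 3, 630 of 4 and 207 of 5 or more, and the number dropped about evenly on a log axis with each further peak, up to chains of 7. Among chromosomes the share in clusters lay between 13.9% on chromosome 4 and 16.2% on chromosome 8. Of all input-called peaks, 31.3% were in clusters, at a density of 327 per Mb compared with 203 per Mb for common peaks. A fixed gap joins more peaks in a denser list, and the part of the density in this difference was not tested.

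Clustered peaks were much like peaks that stood alone. The median width was 331 bp for common peaks alone and 344 bp for those in clusters of 3 or more, and the median fold was 5.29 and 5.24. In the 1100 peaks in clusters of 5 or more, the median width was 358 bp and the median fold 5.12.

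**Figure D3:**
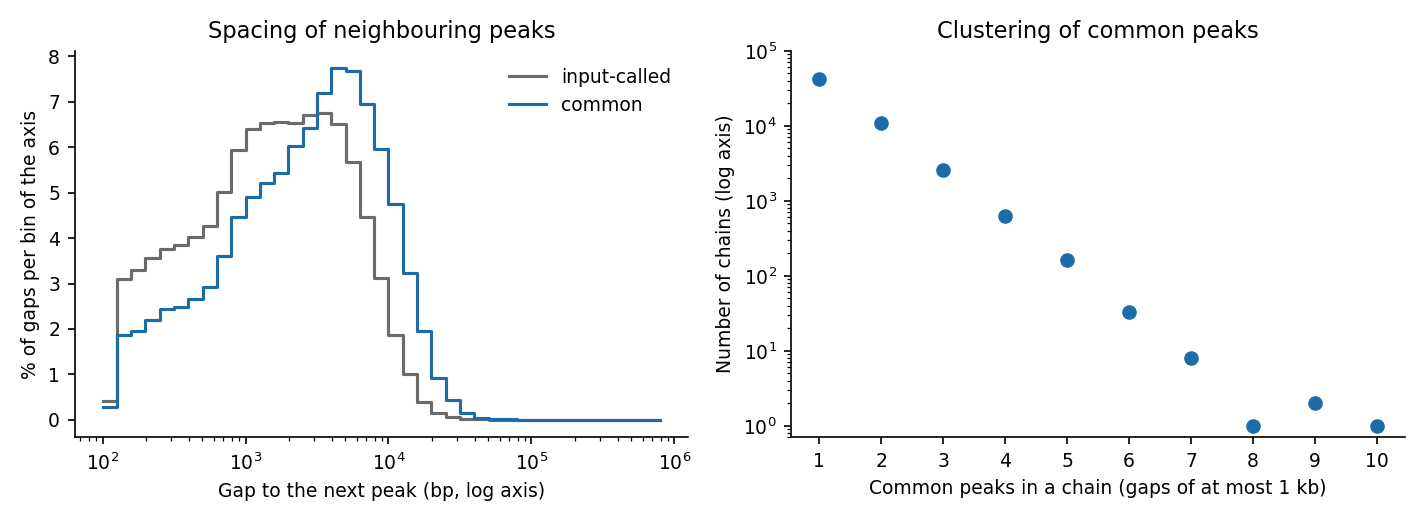
Left, the share of gaps between neighbouring peaks (y axis, percent per bin) by gap length (x axis, bp, log axis) for input-called and common peaks; right, the number of chains of common peaks (y axis, log axis) by the peaks they hold (x axis). The median gap was 2852 bp for common and 1575 bp for input-called peaks, and chains went from 42648 peaks without a neighbour to 1 chain of 10.

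The cluster with most peaks was near the end of chromosome 5. At chr5:29832820-29845493, 10 common peaks with a median width of 837 bp covered 80.1% of 12674 bp, and 18 IgG-called peaks lay in it. Their folds ran from 2.01 to 18.8. The following clusters were smaller and sparser, with 9 peaks each at chr9:20376823-20383431 and chr12:20497906-20506094, 8 at chr5:26192120-26199831 and 7 at chr1:21625861-21631608, and they were covered to between 34.0% and 56.2%. The cluster on chromosome 12 had the lowest median fold of the 5, at 2.49.

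Common peaks had a median width of 336 bp, with quartiles of 231 and 526 bp and a maximum of 5261 bp. Input-only peaks had a median of 170 bp, 166 bp less, and the difference lay between 161 and 175 bp on the 12 chromosomes. Of the common peaks, 15.3% were under 200 bp and 2735 (3.60%) were 1 kb or wider. Of the input-only peaks, 64.0% were under 200 bp and 48 (0.104%) were 1 kb or wider. The smallest width in the list was 121 bp, the minimum the caller set from the fragment length. The median width of common peaks was almost the same on all chromosomes, from 330 bp on chromosome 1 to 345 bp on chromosome 5.

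Wide common peaks were also tall, and more of them held several IgG-called peaks. From peaks under 200 bp to peaks of 1 kb or more, the median fold went from 3.91 to 7.87 and the median number of IP fragments from 40 to 76. Spearman's rho of width with fold was 0.461 over the 75913 peaks of this library. None of the peaks under 400 bp held more than 1 IgG-called peak, compared with 3.06% from 400 to under 600 bp, 20.6% from 600 bp to under 1 kb and 50.9% (1392 peaks) at 1 kb or more. IgG-called peaks were at least 121 bp wide and at least 122 bp apart, so narrow peaks had little room for 2 of them. The IgG calls used the IP scaled to 0.598 of its fragments, and the part of this scaling in the splitting was not tested. The position of the summit had a median of 0.495 of the width of the peak, with quartiles of 0.361 and 0.632. The IgG-called peak at a common peak was narrower than it in 96.8% of cases, with a median ratio of widths of 0.797.

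**Figure D4:**
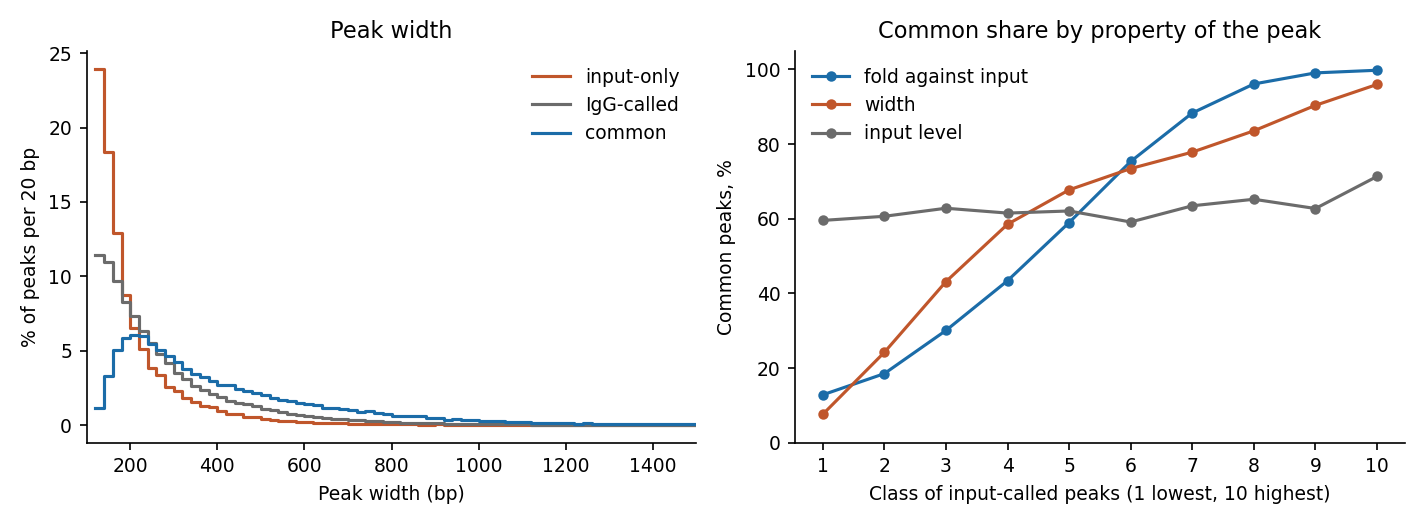
Left, the width of input-only, IgG-called and common peaks (x axis, bp; y axis, percent of peaks per 20 bp); right, the share of input-called peaks that were common (y axis, percent) in 10 classes by fold, width or input control level (x axis), of equal number except that peaks at the background input level form class 1. The median width was 170 bp for input-only and 336 bp for common peaks, and the share went from 12.9% to 99.8% over classes of fold but stayed between 59.1% and 71.3% over classes of input level.

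The 5 highest scores all lay near chromosome ends, 3 of them on chromosome 5. By −log10 q-value over input, the 5 highest common peaks were chr5:29907705-29907954 (2800.0), chr5:29804776-29805012 (1847), chr5:29808234-29808476 (1662), chr6:56184-56468 (1130.4) and chr8:1005-1489 (861). All 5 lay within 153 kb of the start or the end of a chromosome. Their folds over input were between 3.42 and 33.7, but over IgG between 1.41 and 5.96, so that, relative to the same IP, the IgG level exceeded the input level at all 5. At the chromosome 8 peak the fold was 23.2 over input and 1.41 over IgG, with a −log10 q-value of 11.8 over IgG. The highest fold of all common peaks, 49.8 at chr6:64632-64857, was 7.76 over IgG, where the IgG level was 8.995 times its background. For comparison, the peaks in the middle of the ranking, such as chr5:16240191-16240592, had a fold of 5.17 over input, 54 IP fragments and a −log10 q-value of 21.2.

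The 5 widest common peaks behaved in different ways against the IgG control, and 2 of them lay near the end of chromosome 5. The widest, chr1:7644896-7650156 (5261 bp), had a fold of 13.7 over input and broke into 6 IgG-called peaks. chr12:26802696-26805973 (3278 bp) also broke into 6, and chr5:29889036-29891992 (2957 bp) into 3. chr5:29828459-29831480 (3022 bp) kept a single IgG-called peak of 192 bp with a fold of 2.34. In contrast, chr2:10344441-10347372 (2932 bp) was 2839 bp wide over IgG too, with folds of 18.5 and 10.8.

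The last 160 kb of chromosome 5 were looked at more closely after these peaks had been seen. They held 53 common peaks, compared with 32.5 at the mean density of the genome, and 99 input-called peaks. Of these common peaks 3 were among the 5 with the highest −log10 q-value and 2 among the 5 widest, and 10 were 1 kb or wider. Common peaks covered 23.5% of this stretch, compared with 8.47% of the genome. Which sequence lies there was not analysed here.

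The 2 controls differed in level at most summits. The control level of a peak is given relative to the lowest level of its list, the background, which is the mean coverage of the library. It was above the background at 73.1% (72.8 to 73.3) of input-called and 86.4% (86.2 to 86.6) of IgG-called peaks. The median level was 1.11 times the background in the input and 1.27 times in IgG, and the 99th percentile was 2.01 and 3.97 times. The caller had fewer IgG than input fragments to set this level, and the part of this difference in depth was not tested.

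At the 46244 common peaks with the same summit in both lists, the caller's local levels of the 2 controls could be compared. They are the levels the caller set for that summit, with the background as the lowest value, and not counts of control fragments at that base. These summits had passed both calls, and the part of the different depth of the controls was not tested. The IgG level was higher at 66.7% of these summits and the input level at 28.6%. The median log2 ratio of the IgG to the input level was 0.20, and the middle 80% of summits ran from -0.28 to 1.00. On the 12 chromosomes the median lay between 0.18 on chromosome 2 and 0.25 on chromosome 11. The levels of the 2 controls showed almost no rank correlation from summit to summit (Spearman's rho 0.00768, 46244 summits). An IgG level of at least 3 times the background was found at 1327 summits and an input level that high at 204. Of these 204 summits, 192 were also high in IgG, and 87 of the 192 lay on chromosome 12.

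Along the chromosomes, the number of IgG-called peaks followed that of input-called peaks only in part. The log2 ratio of IgG-called to input-called peaks per bin, with 1 added to both counts, had a mean of -0.59 and an SD of 0.10 over 368 bins, and Spearman's rho of the counts was 0.726. The ratio was lowest at the emptiest bin, chromosome 11 at 12 to 13 Mb (-0.96), followed by chromosome 5 at 12 to 13 Mb (-0.90), chromosome 11 at 24 to 25 Mb (-0.87), and chromosome 5 at 8 to 9 Mb and chromosome 6 at 15 to 16 Mb (both -0.84). In these 5 bins 47.8% to 54.3% of input-called peaks were common. The ratio was highest at chromosome 12 at 20 to 21 Mb (-0.13), chromosome 12 at 26 to 27 Mb (-0.31), chromosome 10 at 16 to 17 Mb (-0.38), chromosome 7 at 23 to 24 Mb (-0.40) and chromosome 2 at 22 to 23 Mb (-0.41). In these 5 bins 67.2% to 71.9% were common.

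Bins with a higher IgG level relative to input tended to have a lower common share. The median log2 ratio of IgG to input level at the shared summits of a bin ran from -0.14 to 0.46. Spearman's rho with the common share was -0.385, with the number of input-only peaks 0.430 and with the median width of common peaks 0.435 (368 bins). Against the mean IgG level of the bin's peaks, with the highest levels capped, the common share had a rho of -0.360 (Pearson's r -0.169). Against the mean input level, capped in the same way, rho was 0.0799 (Pearson's r 0.0547). The points share the same IP, the same controls and the caller's threshold, and a high IgG level itself lowers the chance of an IgG call, so these are descriptions without a test.

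The ends of the chromosomes held more common peaks than the rest. Within 1 Mb of an end there were 217 common peaks per Mb, compared with 202 elsewhere, and the density was higher at the ends on 12 of 12 chromosomes. The difference was uneven, from 209.5 against 209.0 per Mb on chromosome 10 to 235 against 205 on chromosome 5. Input-only peaks went the other way, with 112 per Mb at the ends and 124 elsewhere, and were sparser at the ends on 11 of 12 chromosomes, all except chromosome 7. All input-called peaks together were about as dense at the ends as elsewhere, with a ratio of 1.006. The common share was therefore 66.0% (64.9 to 67.04) at the ends and 61.99% elsewhere, and it was higher at the ends on 12 of 12 chromosomes.

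The high density at the ends did not reach past the outermost 1 Mb. The density was 194 per Mb at 1 to 2 Mb from an end, the lowest of 6 distance classes, and 198 at 2 to 5 Mb, 203 at 5 to 10 Mb, 206 at 10 to 15 Mb and 208 beyond 15 Mb. Input-only peaks were at 111 to 112 per Mb within 2 Mb of an end and densest, at 133 per Mb, at 10 to 15 Mb, where the common share was lowest (60.8%, 60.3 to 61.3). Median widths in the 6 classes lay between 328 and 347 bp, with the highest in the outermost 1 Mb.

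**Figure D5:**
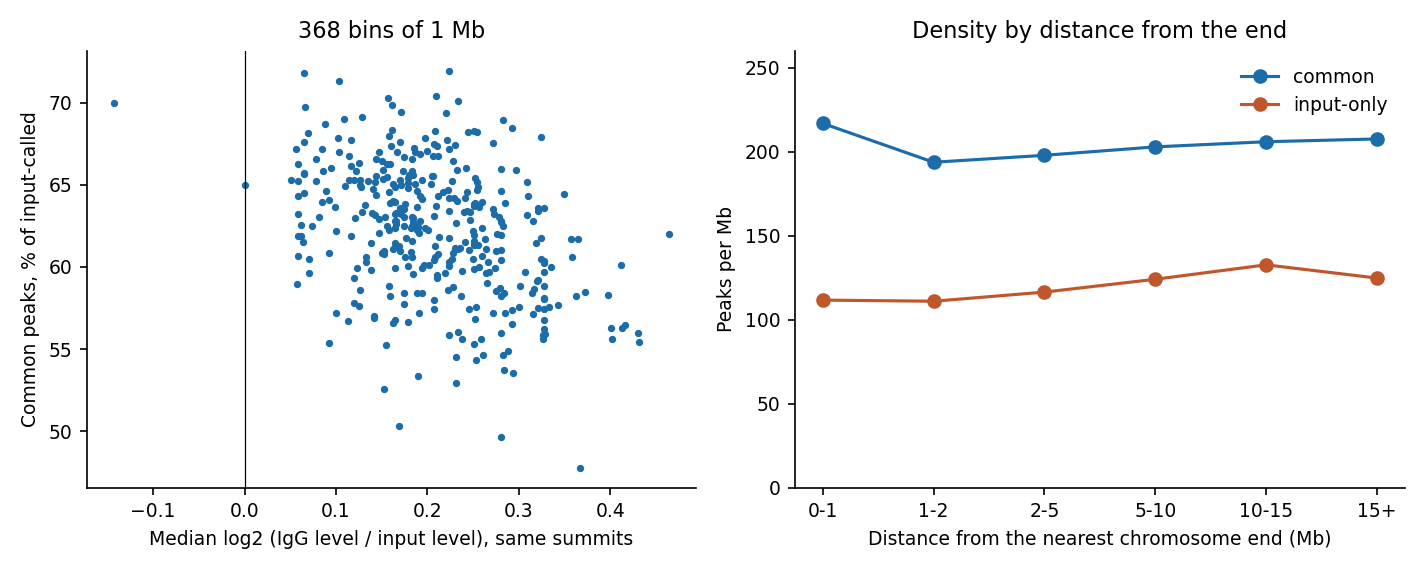
Left, the share of input-called peaks that were common (y axis, percent) against the median log2 ratio of the IgG to the input control level at shared summits (x axis) for 368 bins of 1 Mb; right, common and input-only peaks per Mb (y axis) by distance from the nearest chromosome end (x axis, Mb). The share tended to be lower where the ratio of the IgG to the input level was higher (Spearman's rho -0.385). Common peaks were at 217 per Mb in the outermost 1 Mb and 194 per Mb in the next.

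IgG-only peaks were found on all 12 chromosomes, from 18 on chromosomes 5 and 8 to 91 on chromosome 12, with a local excess in a few bins. Of the 407 IgG-only peaks, 62 (15.2%) lay in chromosome 12 at 20 to 21 Mb, with a median IgG level of 8.33 times the background and 167 IP fragments. A further 12 were in chromosome 9 at 4 to 5 Mb (median level 10.8) and 9 in chromosome 1 at 33 to 34 Mb (10.1). The 345 IgG-only peaks outside the first of these bins had a median level of 1.07 and 33 fragments. Control levels of at least 10 times the background were found at 157 input-called peaks, of which 65 were in the same bin of chromosome 12 and 17 in that of chromosome 1. At IgG-called peaks the numbers were 134, 55 and 17. In that bin of chromosome 12 both controls were thus high, and its 191 common peaks had a median fold of 3.96. With levels over 5 times the background counted as 5, its mean levels were 2.13 in the input and 3.14 in IgG.

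Beside the most similar conditions, fewer of the input-called and more of the IgG-called peaks of demethylated DNA at pH 5.5 were matched in the other list. Each condition is a merged library of its own depth, so the values are set side by side without a test. The common share was 62.3%, compared with 89.8% for hypermethylated DNA at pH 5.5 and 90.5% for the demethylated pH 7.0 list, where the IP had not been scaled in either list. The SD of the log2 ratio of IgG-called to input-called peaks over bins was 0.10, compared with 0.042 and 0.047. IgG-only peaks numbered 407 of 80882, compared with 6729 of 90964 and 5704 of 79889.

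The spread along the chromosomes differed as well. The variance of the bin counts was 2.19 times the mean in demethylated DNA at pH 5.5 and 5.78 times in both other conditions. The IP coverage was 7.99 fragments here, 9.35 for hypermethylated DNA at pH 5.5 and 14.4 for the demethylated pH 7.0 list. The part of this coverage in the differences was not tested. Chromosome 3 had the highest density of common peaks here and the lowest in both others (208 per Mb for hypermethylated DNA at pH 5.5 and 181 per Mb for the demethylated pH 7.0 list), in which chromosome 12 was densest. Common peaks were denser in the outermost 1 Mb than elsewhere here, while hypermethylated DNA at pH 5.5 had 212 per Mb at the ends and 222 elsewhere and the demethylated pH 7.0 list 182 and 197. Across 368 bins, the common peaks of demethylated and hypermethylated DNA at pH 5.5, which share no library, had a Spearman's rho of 0.298, and their log2 ratios of IgG-called to input-called peaks a rho of 0.0186.

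Common peaks were fewer and farther apart here than in hypermethylated DNA at the same pH, whereas input-called peaks were more numerous, at 121946 and 92099, and IgG-called peaks fewer, at 80882 and 90964. Common peaks numbered 75913 and 82718, the median gap was 2852 and 2368.5 bp, and 15.0% and 22.9% of common peaks were in clusters. Gaps over 100 kb numbered 9 and 1. The median fold, in contrast, was 5.29 here and 4.16 in hypermethylated DNA, at an IP coverage of 7.99 and 9.35 fragments. The median width was 336 and 293 bp, while the smallest width, set by the fragment length of each library, was 121 and 153 bp. Demethylated DNA at pH 7.0 had a median width of 424 bp and a smallest width of 206 bp, so differences between conditions in peak width and in fragment length cannot be told apart.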

How the data were processed

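Reads were aligned to the MSU v7.0 rice assembly with BWA, reads of mapping quality below 10 were removed with SAMtools and duplicates with Picard, and peaks were called from the merged iMab libraries with MACS2 2.1.1 at a q-value of 0.05, by the authors. The deposited lists give each peak's position and summit, its fold (a ratio), its −log10 p-value and, as its score, its −log10 q-value, as the authors' caller wrote them. Read counts were not part of the lists used.

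Fold and p-value were solved together for the whole number of IP fragments, the control level and the scale of the IP, for peaks with a −log10 p-value under 250. A solution was found for 121894 of 121899 input-called and 80858 of 80870 IgG-called peaks tried. The solver and the overlap count were tested on simulated lists, the latter against bedtools 2.31.1. Peaks were assigned to bins by summit, and the last partial bin of a chromosome was left out. Analyses used Python with numpy 2.4.6, pandas 2.3.3 and scipy 1.17.1, and matplotlib 3.10.9.

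Samples were grouped by their titles, and the demethylated pH 7.0 input-called list was assigned by the label of its input, since its IP labels name another list. No test was made, since the replicates were merged and chromosomes, bins and peaks are not replicates. Named regions are the 5 common peaks with the highest −log10 q-value, the 5 widest, the 5 fullest and emptiest bins, the 5 largest clusters, the 5 longest gaps, and the 5 bins with the highest and lowest ratio of IgG-called to input-called peaks among those with at least 30 input-called peaks. Positions and lists outside this rule are stated as chosen after their values were seen, as was the peak of highest fold; peaks in the middle of the ranking were named for scale. The members and lists were chosen with earlier results of these data known. Alternatives changed the overlap, the −log10 q-value, the peak set, the IP coverage, the list size, the bin, the cluster gap, the width statistic and the control level. A planned description of GC content, C-run motifs and gene features was left out, since no sequence or annotation of the assembly was used here.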

Additional observations from a re-analysis of the deposited data

How the results depend on the processing

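Over 11 results, 52 alternative values were computed, of which 26 stayed within the spread of the main value (1 SD over 12 chromosomes, the Wilson interval of a share, or 1.5 times a count or ratio), 26 moved beyond it and 0 reversed. Requiring 50% of the shorter peak to overlap moved none of the 7 results it was tried on. The common share was 59.8% at a −log10 q-value of at least 5 in both lists, 65.2% after scaling to the IgG coverage and 83.7% with lists of equal size, and the share of IgG-called peaks overlapping an input-called peak was 99.1% and 89.3% in the last 2. The median gap was 3825 bp at the stricter q-value, 1575 bp over all input-called and 2644.5 bp over all IgG-called peaks, and 3264 bp between summits. The share in clusters was 9.90%, 31.3% and 16.98% in the first 3 of these settings, 4.87% with gaps of at most 500 bp and 75.2% with gaps of at most 5 kb. The median width was 358, 258 and 226 bp in the same 3 settings, and the mean width was 417 bp. The width difference was 150 bp at the stricter q-value and 206 bp between means. The SD of the log2 ratio over bins was 0.068 with lists of equal size and 0.13 with bins of 500 kb. With input-called peaks at the background control level only, 19538 common peaks were left, the variance to mean ratio was 3.23 and 4.51% were in clusters. The share of peaks above the background was 86.4% against IgG. The cause of these shifts was not tested. Chromosome 11 stayed the sparsest, and chromosome 3 the densest except over all input-called peaks, where chromosome 5 was. Leaving out chromosome 11, the bin of chromosome 12 at 20 to 21 Mb or gaps over 50 kb, and the level against IgG, were chosen after seeing the data. No paired analysis was possible because the replicates had been merged and share no values of their own, and for the same reason no replicate could be left out. The coverage was 7.99 fragments for the input-called and 4.78 for the IgG-called list, and what depth limits was not tested beyond the scaling above.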
